A study of Mus musculus with 87 samples.

Results

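H03384 and H03387 were 2 male mice of the second generation of a family lacking the Chr4 KRAB zinc finger protein cluster (Chr4-cl), and their tail DNA was examined for ETn insertions beside that of 5 tails from the generation before. These 2 libraries were chosen by label, as the tails with genotype Chr4-cl KO/KO (F2) and ancestry C6765 x C6733, out of 87 libraries of 76 animals and cell lines. All animals of the comparison carried the strain label B6x129X1/SvJ (F2) and were labelled as lacking the cluster on both chromosomes. The first generation tails came from C6765, C7414, C7415 and C7417 (females) and C6733 (male), offspring of BA27227 x BA27232 and labelled Chr4-cl KO/KO. C6765 and C6733, a sister and a brother, were the parents of H03384 and H03387. BA27227, a Chr4-cl KO/WT female, and BA27232, a Chr4-cl KO/KO male, were thus the only pair of grandparents, and ear DNA was read from each. Ears of 3 further KO/KO animals of the first generation (C6923, C6924, C6926) were kept apart from the tails. The labels gave no ages apart from marking some further tails as adult, the line descended from mice made by injecting knockout embryonic stem cells into blastocysts, and a tail or ear sample mixed many cell types.

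ETn elements are endogenous retroviruses of the mouse that lack much of their own coding capacity and move by copying an RNA into DNA, with enzymes supplied by related elements. KRAB zinc finger proteins bind such elements and recruit KAP1 and histone methylation, which silence them in the early embryo. An insertion that arises in a germ cell is passed to the young in every cell, whereas an insertion that arises in the embryo is present in some of its cells, and reaches the next generation only if the germ line holds it. The question put to these data was whether a second generation without the cluster carried more insertions of its own, and whether it inherited those of its parents.

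Insertions were read by pulling genomic fragments out with RNA probes that hybridise to ETn at the outer ends of its long terminal repeats (LTRs), and sequencing each fragment from both sides. The probes below are shown because they set which DNA was read. They match the start and the end of 1 element on the plus strand of the X chromosome, at chrX:17358387-17358506 and chrX:17365670-17365789 of build mm9, and the capitals mark the outermost bases of the LTRs.
First LTR, start: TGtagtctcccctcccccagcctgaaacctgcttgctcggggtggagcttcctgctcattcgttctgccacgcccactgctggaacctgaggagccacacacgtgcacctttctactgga
Second LTR, end: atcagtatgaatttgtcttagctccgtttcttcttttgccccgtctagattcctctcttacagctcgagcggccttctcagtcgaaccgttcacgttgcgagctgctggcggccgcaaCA
The window that carries the main finding lay on chromosome 6 at chr6:98345217-98345516 of mm9, plus strand, in the middle of the region read in H03387. Capitals mark the stretch covered by the only read of the brother H03384 there. The second window, chr8:117760029-117760328, lay at the insertion with the highest read level in H03384 and shows the usual kind of site, with no capitals.
H03387, chromosome 6: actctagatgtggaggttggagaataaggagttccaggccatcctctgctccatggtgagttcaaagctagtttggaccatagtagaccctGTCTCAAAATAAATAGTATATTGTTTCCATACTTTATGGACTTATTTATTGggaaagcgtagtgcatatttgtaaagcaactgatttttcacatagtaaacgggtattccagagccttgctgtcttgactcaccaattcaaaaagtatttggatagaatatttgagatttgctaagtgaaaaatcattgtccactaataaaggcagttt
H03384, chromosome 8: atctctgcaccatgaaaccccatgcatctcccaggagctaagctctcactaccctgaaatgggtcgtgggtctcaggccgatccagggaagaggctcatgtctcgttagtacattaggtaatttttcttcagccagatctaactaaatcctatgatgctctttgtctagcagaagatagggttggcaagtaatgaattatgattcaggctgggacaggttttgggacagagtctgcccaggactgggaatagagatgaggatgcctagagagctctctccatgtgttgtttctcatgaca
Bases G and C made up 37.0% of the chromosome 6 window and 47.3% of the chromosome 8 window.

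A call required 10 or more reads per 1000000 ETn-paired reads of the library (RPM), and a single-animal insertion was a locus called in 1 animal alone, with no read in any sequenced ancestor. H03384 and H03387 had 635192 and 614973 reads, the 5 first generation tails between 800823 and 843579, the ears between 695868 and 755912, and BA27227 and BA27232 had 698731 and 696331. The call threshold was therefore worth 6.35 and 6.15 reads in the second generation and 8.01 to 8.44 reads in the first generation tails. Regions with 1 read numbered 3102 and 2790 in the second generation and 6340 to 9412 in the first generation tails, so depth and scattered reads moved with generation. Of 2345 loci called in every B6 library, 97.0% and 96.8% were called in H03384 and H03387, and between 97.5% and 98.2% in the first generation tails. Reads on the Y chromosome and the dose of X loci matched the sex labels of the second generation, the first generation tails and the grandparents. They went against the labels of the ears: C6923, C6924 and C6926 were labelled male but had 0.00516% to 0.00677% of reads on Y, beside 0.149% to 0.156% in the 4 other males of the family, and an X dose of 0.996 to 1.02.

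The genotype labels were checked first, at polymorphic ETn loci near the cluster. These loci tell whether the copies of distal chromosome 4 match B6, the background on which the study first derived its Chr4-cl line. The deletion itself was not read. Dose was the RPM over the median of the B6 libraries, scaled to autosomal loci at 100 RPM or more in every animal. At chr4:147667616-147670848 it was 1.01 in H03384 and 0.986 in H03387, and the 9 other KO/KO libraries of the family had 0.945 to 1.02. The 9 KO/WT libraries, BA27227 among them, lay apart at 0.679 to 0.762. A locus that B6 lacks, at chr4:145019453-145021647, had no read in H03384 and 4.88 RPM in H03387, beside 292 to 350 RPM in the KO/WT libraries. Of the 6 polymorphic loci examined on distal chromosome 4, 5 separated the KO/KO from the KO/WT libraries of the family. At the remaining locus, chr4:155288494-155291447, the groups overlapped through the sons alone. The doses of 0.819 in H03384 and 0.754 in H03387 lay inside the KO/WT range of 0.598 to 0.828. The 9 other KO/KO libraries had 0.835 to 0.976, above that range. The cause of the lower doses in the sons was not tested.

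H03384 had 59 single-animal insertions and H03387 had 54. The first generation tails had 23 in C6765, 87 in C6733, none in C7414, 30 in C7415 and 43 in C7417. Both sons lay above 4 of the 5 first generation animals and above their mother, and below their father. The means were 56.5 ± 3.54 (SD, n = 2) and 36.6 ± 32.2 (SD, n = 5), so the spread within the first generation was larger than the difference. In 80% of the 10 pairs of a second and a first generation animal the second generation animal had more, and in 20% it had fewer, a difference of 60 percentage points (exact two-sided permutation test of the rank sum, p = 0.381, adjusted p = 0.476 over the 3 tests of the generations). The difference moved with the threshold. At 20 RPM or more the sons had 10 and 11 and the first generation tails 0 to 15, a difference of 20 percentage points. With 10 reads in place of 10 RPM the direction turned, as the sons had 23 and 25 and the first generation tails 0 to 72, a difference of -10 percentage points. With 2 animals against 5 this test could not give a p below 0.0952 without ties. Without C6733 the difference was 100 percentage points (exact permutation p = 0.133, the smallest that 2 against 4 allows), and without both parents, C6765 and C6733, it was 100 as well (exact permutation p = 0.20, the smallest for 2 against 3). Both sons were male and C6733 was the only male among the 5, so sex and generation cannot be told apart among the other 4.

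**Figure D1:**
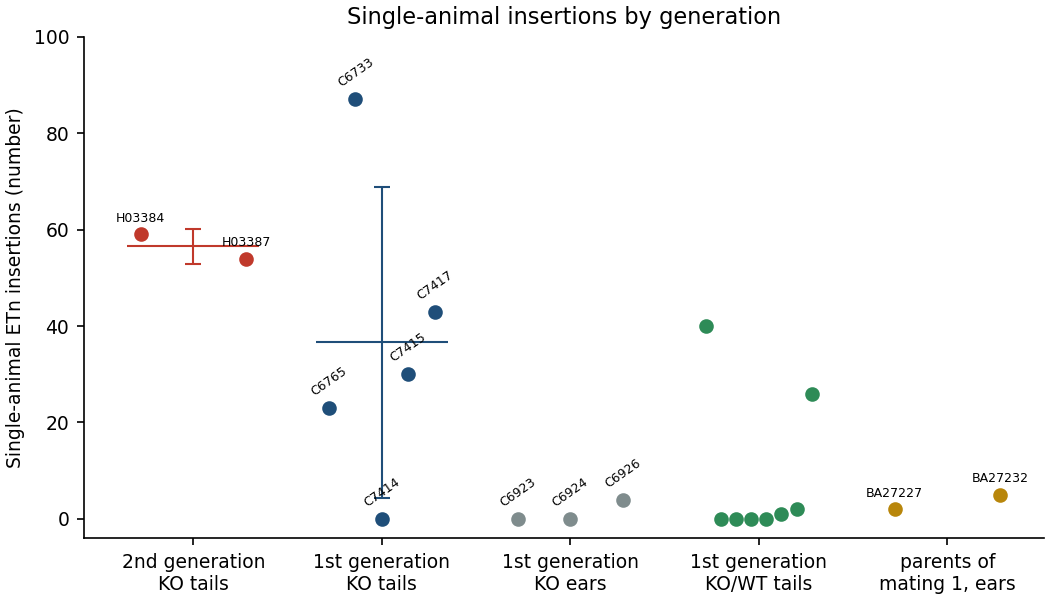
Number of single-animal ETn insertions (vertical axis) in each animal of the family, by group; points are animals, and horizontal lines with bars are the mean ± SD for the second and the first generation KO tails. The 2 second generation animals, at 59 and 54, lie inside the range of 0 to 87 of the first generation KO tails, and the ears and most KO/WT tails lie near 0.

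Other animals measured the same way set the background. The 3 first generation ears had 0, 0 and 4 single-animal insertions, below every tail of the KO family but C7414. The 8 KO/WT tails of the same mating had between 0 and 40, with a median of 0.5. Tails of wild-type offspring of mating 2 had between 0 and 414, and those of mating 3 between 12 and 56, so animals with an intact cluster reached or passed the counts of the second generation. In the separate F1 pedigree, the 4 second generation KO animals had between 0 and 1, where 4 KO animals of the generation of their parents had between 1 and 18. The second generation of mating 1 was screened against 4 ancestors and the first against 2, but with parents alone counted as ancestors H03384 had 60 and H03387 still 54.

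All but 1 of the 113 second generation insertions were weak. Those of H03384 had a median of 12.6 RPM and reached 39.4 RPM, and those of H03387 had a median of 13.8 RPM and a highest value of 283 RPM, followed by 39.0 RPM. The medians in the first generation were 15.4 RPM in C6765, 16.0 RPM in C6733, 14.4 RPM in C7415 and 14.8 RPM in C7417. By reads, 65 of the 113 insertions rested on 7 to 9 reads. For comparison, autosomal loci that 1 parent carried and passed on were read at a median of 176 RPM in H03384 (28 loci) and 187 RPM in H03387 (29 loci). The median insertion was thus 7.14% and 7.39% of the level of an inherited copy in the sons, and 7.67% to 8.57% in the first generation. These are ratios of read levels, and whether they equal a share of cells was not tested. They depend on the cuts, as insertions were counted from 10 RPM and inherited loci from 50 RPM. With calls from 5 RPM the sons had 163 and 198 insertions, so a lower cut would lower the median.

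**Figure D2:**
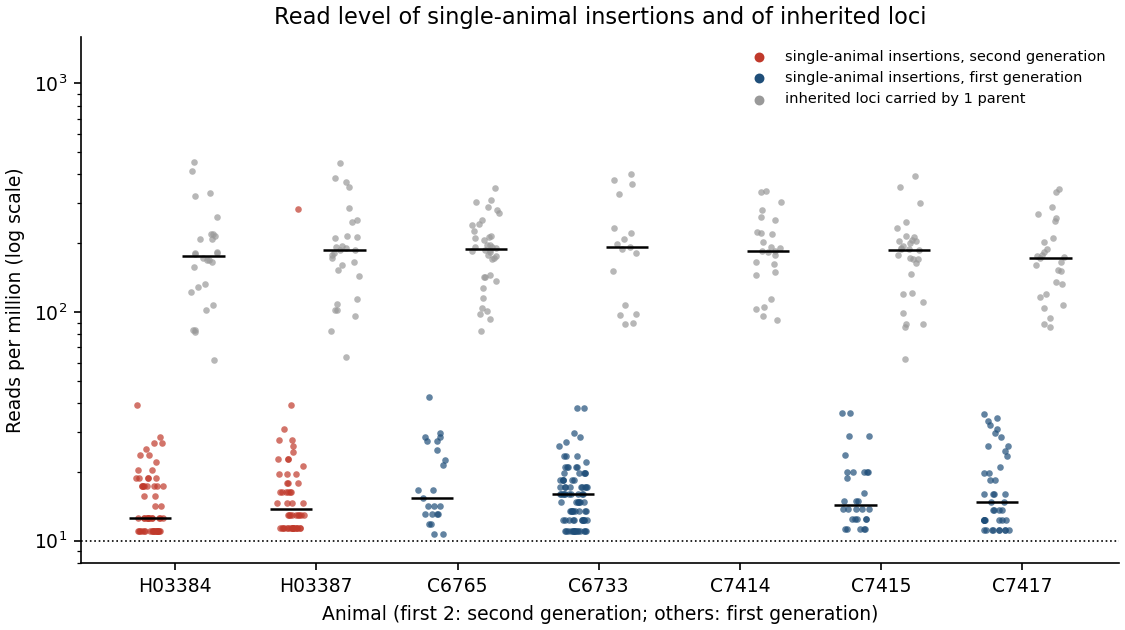
Read level in RPM (vertical axis, log scale) of each single-animal insertion and of each autosomal locus inherited from 1 parent, for the 2 second generation and the 5 first generation tails; black lines are medians and the dotted line is the call threshold of 10 RPM. A single insertion of H03387, at 283 RPM, lies among the inherited loci, and all other insertions of both generations lie below 50 RPM.

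A repeat library of H03387, with 633447 reads, was a technical check of these weak calls. Of its 54 insertions, 53 had a read there (98.1%, exact binomial 95% interval with a lower limit of 90.1%), and 30 were called (55.6%, 41.4 to 69.1%). The repeat library itself gave 61 single-animal insertions, 59 of which had a read in the first library. A first generation tail, C7415, behaved alike, with all 30 insertions read and 17 called in its repeat library of 626494 reads. Nearly all weak loci were therefore read again in the same animal, although the threshold was passed in both libraries by only part of them.

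The exception was the locus at chr6:98344971-98345952. It had 174 reads in H03387, or 283 RPM, over a region of 684 bases, and 189 reads or 298 RPM in the repeat library of the same animal. That level was 1.51 times the median of the 29 inherited loci of H03387 that came from 1 parent, whose range was 63.4 to 450 RPM, with 5 of them above it. H03384 had 1 read there, at chr6:98345308-98345358, the stretch in capitals above. No read lay at the locus in the tails of C6765 and C6733 or in the ears of BA27227 and BA27232, and no other of the 76 animals and cell lines had a read in its first library. The position was intergenic, 52223 bases from the predicted gene Gm765, and up to 1000 bases around it the reference matched a capture probe over no more than 49 bases.

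Further libraries of the father were looked up at this locus as well. His testis, brain, kidney and adult tail had no read, nor had the repeat library of his testis, but his blood had 2 reads (2.85 RPM of 701799), at chr6:98345180-98345388. A repeat library of C5734, an animal of mating 2, had 1 read. To place these values, 83 loci were taken that had 100 RPM or more in some animal and no read in the tail of C6733. Over the 6 further libraries of C6733 these gave 498 pairs of locus and library, of which 19 had 1 read, 3 had 2 reads, the blood at chromosome 6 among them, and none had more. Whether the reads in blood came from the same insertion was not tested.

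This was the only locus with 100 RPM or more in a second generation animal and under 10 RPM in both of its parents, and a minimum of 50 RPM gave the same count. The first generation tails also had 1 such locus, in C7417, at chr6:51549777-51550984, which was 9099 bases from Snx10, a gene for a sorting nexin of endosomes. C7417 had 267 RPM there, and its KO/WT sisters C6921 and C6925 had 263 and 289 RPM, while both parents had no read. The first generation locus was thus shared by 3 animals of 1 generation, whereas the locus of H03387 was called in 1 animal, its brother being at 1.57 RPM. The first generation ears had no such locus.

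Insertions of the parents were looked up in the sons. A locus passed on at an inherited level would be called in a son and would not count as a single-animal insertion, so the sons were left out of the rule on other animals for this purpose. Loci called in C6765 or C6733, in no other animal but the sons and with no read in BA27227 and BA27232 then numbered 23 and 87, and leaving the sons out added none to the single-animal insertions. Of these 110, 0 were called and 0 had a read in H03384 or H03387, which allows a share of up to 2.73% at 3 counts. A locus called in both parents was not in the set. The repeat library of H03387 had no read at them either. By the same rule the testis, its repeat library, the brain, blood, kidney and adult tail of the father gave 52 loci, 5 of them in the testis libraries, and none had a read in a son. The single-animal insertions of the aunts C7415 and C7417 gave 0 of 73, as counts of reads under the call threshold alone. When loci of 5 RPM or more were admitted, 1 of 296 had a read in a son. It lay in an intron of Sgcz, a sarcoglycan gene, at chr8:38929476-38929980, with 6 reads in C6733 and 1 in H03387, and animals with a read there numbered 5. Of the grandparents, whose own ancestors were not sequenced, BA27232 gave 0 of 5, whereas both insertions of BA27227, each at 12.9 RPM, had reads in both sons and in other animals.

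No locus was called in both sons with no read in their parents and grandparents. Below the call threshold, the only level at which a single-animal insertion can be read elsewhere, none of the 59 insertions of H03384 had a read in any other animal, and of the 54 of H03387 only the chromosome 6 locus had, in its brother. The rule allows no read in the first library of a parent, so among the parents only the 6 further libraries of C6733 could hold one. In those libraries that locus, through the reads in blood, was also the only one of the 113 with a read.

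The other insertions with the highest levels were spread over the genome. In H03384 the highest was at chr8:117759977-117760379, with 25 reads or 39.4 RPM, in an intron of Wwox, which encodes an oxidoreductase with WW domains. The next were at chr18:13448635-13449089 (28.3 RPM, intergenic, with Hrh4 as the nearest coding gene), chr6:82786362-82786835 (26.8 RPM, intergenic, nearest to the hexokinase gene Hk2), chr11:77925774-77926237 (26.8 RPM, intron of BC017647) and chr9:47325577-47325971 (25.2 RPM, intergenic, with the cell adhesion gene Cadm1 as the nearest coding gene). In H03387 the level below the chromosome 6 locus was 39.0 RPM at chr19:41042055-41042663, where the region read overlapped a noncoding part of an exon of Blnk, an adaptor of B cell receptor signalling. It was followed by chr14:23584781-23585454 (30.9 RPM, intron of 1700112E06Rik), chr4:110552459-110553212 (27.6 RPM, intron of the carboxypeptidase gene Agbl4) and chr18:47235989-47236418 (27.6 RPM, intron of Commd10). Every one of these but the chromosome 6 locus was read in 1 animal only.

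Genes held 60 of the 113 insertions, or 53.1% (exact binomial 95% interval 43.5 to 62.5%). The share was 47.5% of 183 insertions in the first generation tails (40.1 to 55.0%), and protein-coding genes covered 37.5% of the chromosomes. Autosomal polymorphic loci, which are present at 100 RPM or more in at least 2 libraries and not called in some other, lay in coding genes at 74 of 315, or 23.5% (18.9 to 28.6%). Exons were touched by 11 of the second generation regions, 2 in H03384 and 9 in H03387, and a region read spans the flank of an insertion and not its exact point. The insertions fell on 20 chromosomes with at most 11 on any, chromosome 1. Median width was 398 bases, against 484 bases in the first generation, and median G and C content in windows of 300 bases was 44.0% against 43.0%. No test was made of these shares and widths.

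Inherited loci were followed to see how the family background passed down. Across the series 328 loci were polymorphic, with 100 RPM or more in at least 2 libraries and no call in another, and 138 of these were called in some and not in others of the 12 family libraries. A call at 10 RPM does not by itself show that an animal carries a locus, and 127 of the 138 had 50 RPM or more in some family library. Of the 138, 74 were called in H03384 and 76 in H03387. In the first generation tails 95 were called in C6765, 76 in C6733, and 94, 94 and 91 in C7414, C7415 and C7417, and in the grandparents 104 (BA27227) and 89 (BA27232). The sons lay at or below the lowest first generation tail, that of their father. The means were 75 ± 1.41 (SD, n = 2) and 90.0 ± 7.97 (SD, n = 5), and the difference over pairs was -90 percentage points (exact two-sided permutation test of the rank sum, p = 0.190, adjusted p = 0.476). Much of it rested on weak loci: 9 and 4 loci had 10 to 50 RPM in the sons, against 15 to 25 in the first generation tails. At 50 RPM or more the sons had 65 and 72 and the first generation tails 58 to 79, which overlap. The 138 loci included 10 on X and 3 on Y. Both sons were male and C6733 was the only male of the 5 tails, so sex moved with generation in this count. On autosomes alone the sons had 68 and 69 and the first generation tails 68 to 85. The difference was then -70 percentage points (exact two-sided permutation test of the rank sum, p = 0.238).

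**Figure D3:**
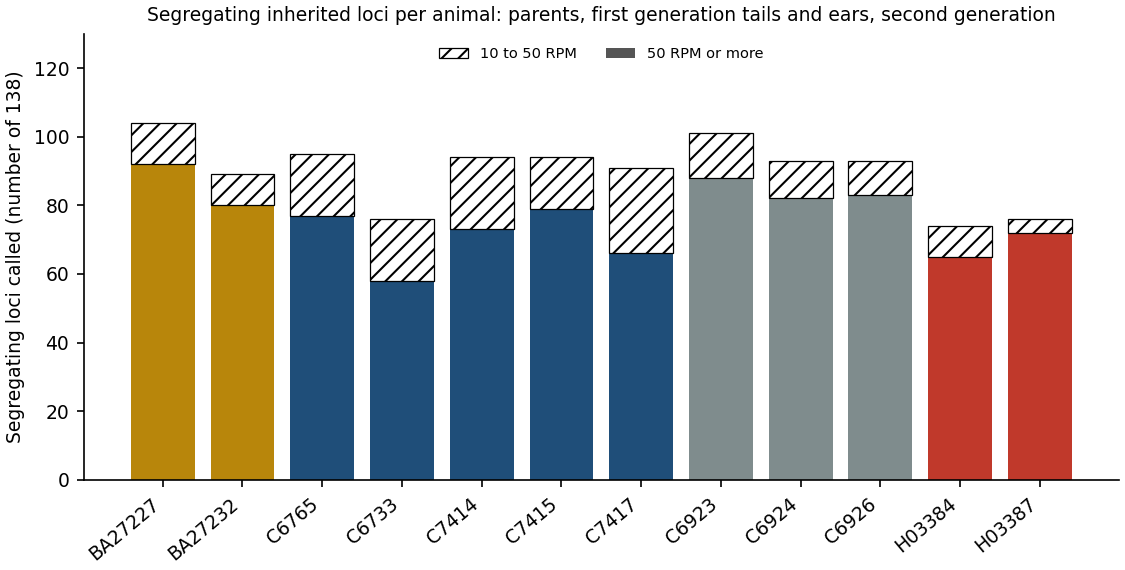
Number of the 138 segregating loci called in each of the 12 family libraries (vertical axis), divided into loci at 50 RPM or more (filled; gold, grandparents; blue, first generation tails; grey, ears; red, second generation) and at 10 to 50 RPM (hatched). The 2 second generation animals have hatched parts of 9 and 4 loci, shorter than those of the first generation tails, and filled parts of 65 and 72 that lie inside the range of the first generation tails.

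Of the 6 loci named for dividing the generations most, 5 were on sex chromosomes. Those carried by both sons and by the fewest first generation tails were all on Y, and among the tails C6733, the only male, alone had them. Both sons were male as well, so these Y loci divide the animals by sex and say nothing of generation. At chrY:2650893-2652394 the sons had 414 and 424 RPM and C6733 had 417 RPM, at chrY:589428-591407, near Ddx3y, they had 327 and 348 RPM and C6733 had 332 RPM, and at chrY:475547-477389, in an intron of Uty, they had 280 and 278 RPM and C6733 had 285 RPM. BA27232 had them too, and all other family libraries had at most 8.64 RPM there. Of the loci called in neither son and in all 5 first generation tails, the first was at chrX:21202992-21204201, with 0 and 1.63 RPM in the sons and 192 to 205 RPM in the tails, and its neighbour at chrX:21194746-21196376 had 4.72 and 9.76 RPM against 131 to 164 RPM. The third, at chr6:146733500-146741301 next to Arntl2, a gene of the circadian clock, had 3.15 and 4.88 RPM in the sons, 240 and 242 RPM in C7415 and C7417, and 19.0 to 25.8 RPM in the other tails, where its call was weak.

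Carriers passed on about every other locus. Among autosomal polymorphic loci clearly present (50 RPM or more) or absent (under 10 RPM), C6765 alone carried 33, of which H03384 had 19 and H03387 had 17. C6733 alone carried 16, of which H03384 had 9 and H03387 had 12. Together the sons had 57 of 98 chances (58.2%, exact binomial 95% interval 47.8 to 68.1%), and the 5 first generation tails had 137 of 277 from BA27227 and BA27232 (49.5%, 43.4 to 55.5%), so the intervals overlap. Neighbouring loci are inherited together and each locus is counted in every sibling, and the intervals cover counting error only. Loci of both parents were in H03384 at 123 of 128 and in H03387 at all of 127, beside 672 of 730 (92.1%) in the first generation tails. At 96 loci absent in both parents neither son had a copy, whereas with the parents of mating 2 put in their place 6 of 79 and 4 of 80 loci without a carrier would have been present.

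**Figure D4:**
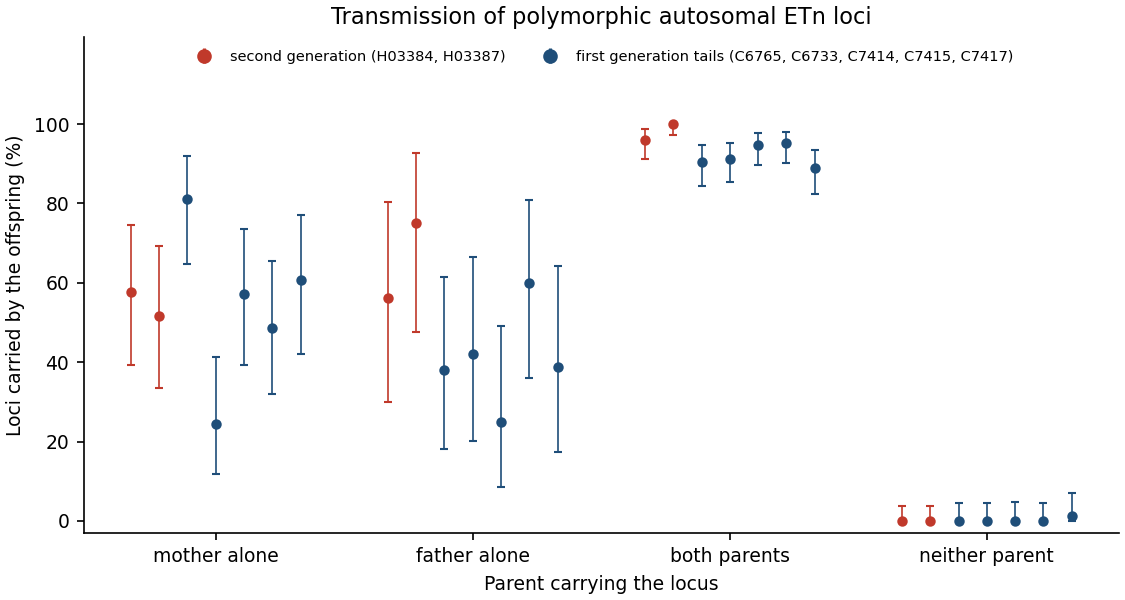
Percent of polymorphic autosomal loci carried by each offspring (vertical axis), by which parent carried the locus; points are single animals with exact binomial 95% intervals, red for the second and blue for the first generation. For loci of the mother alone H03384 and H03387 lie inside the range of the first generation. For loci of the father alone H03384 lies inside that range, and H03387 lies above every first generation tail. The second generation lies at or above 96.1% for loci of both parents, and at 0 for loci of neither.

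Not every locus of the grandparents was found in the sequenced parents and sons. Of 193 autosomal loci that a grandparent carried and that were clearly present or absent in the 6 libraries of the direct line, 174 were in C6765 or C6733 and 19 in neither. Absence from these libraries is not loss from the family. At chr12:33217381-33219513, absent in both parents and both sons, the dose was 0.761 in C7414 and 1.05 in C7415. Of the 174, 134 were in both sons, 34 in 1 son and 6 in neither. All 126 loci that both parents carried were in at least 1 son, 121 in both. No polymorphic autosomal locus among those clearly present or absent in these libraries was in a son without being in a parent and a grandparent. The chromosome 6 locus of H03387, called in 1 animal, is not polymorphic by this rule. On the X chromosome, which a male receives from his mother, C6765 alone carried 5 polymorphic loci, of which H03387 had 4 and H03384 none. Both parents carried 5 others, of which H03384 had 3 and H03387 none, so the brothers had no polymorphic X locus in common.

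Dose was used to place loci at 1 copy or at 2, and did so only in part. Of the 138 loci, 53 were autosomal and present in all B6 libraries, and their dose was scaled to 1672 autosomal loci at 100 RPM or more in every animal. Some of the 53 had a dose under 0.25 in every family library, so by dose no family member carried them. Examples are chr2:129087518-129089651, at most 0.0437, and chr9:104363352-104366347, at most 0.0281. Such loci counted as segregating through their calls alone, and keeping them among the 53 lowered every share given below. X loci served as a scale: over 105 of them, 8 B6 males had a median of 0.749 and 6 B6 females one of 1.01, so that 1 copy read as about 0.75 and not as 0.5. With limits of 0.25 and 0.75 the share of the 53 loci with an intermediate dose was 18.9% in H03384 and 30.2% in H03387. It was 17.0% in C6765, 18.9% in C6733, and 17.0%, 20.8% and 22.6% in C7414, C7415 and C7417. H03387 was above all first generation tails, while H03384 was inside their range. The difference over pairs was 50 percentage points (exact two-sided permutation test of the rank sum, p = 0.476, adjusted p = 0.476). As the limit of 0.75 cut through the loci in 1 copy, a limit halfway between B6 males and females, 0.880, was added after the data were seen. The shares were then 37.7% and 49.1% in the sons, 26.4% to 41.5% in the first generation tails, and 58.5% and 60.4% in BA27227 and BA27232 (exact permutation p = 0.238 for the sons against the tails).

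**Figure D5:**
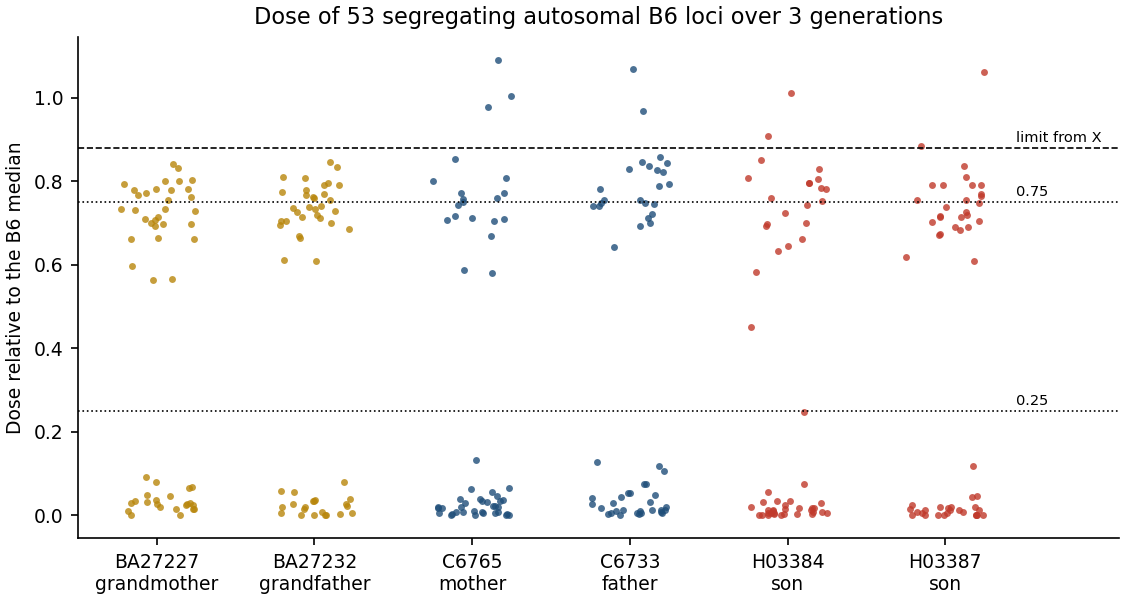
Dose of the 53 segregating autosomal B6 loci, as RPM over the B6 median after scaling (vertical axis), in the direct line of grandparents, parents and sons; each point is a locus, with lines at the limits of 0.25 and 0.75 and at 0.880, the limit from X. The grandparents have no locus above the limit from X and the sons 2 each, and most points above 0.25 lie near 0.75 and not near 0.5. Some of the 53 loci lie below 0.25 in every animal shown.

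By dose, passage from parent to son gave a like picture with wider error. Loci at an intermediate dose in 1 parent and absent in the other were passed on in 7 of 13 cases to H03384 and in 9 of 13 to H03387, or 61.5% together (exact binomial 95% interval 40.6 to 79.8%). Doses that the parents could not have given numbered 13 and 10 of 53 in the sons with these limits, and 2 and 2 of 53 with the limit from X. With the parents of mating 2 in place of the true ones they numbered 17 and 18, and then 3 and 2. In the sons, dose with the limit from X thus did not tell the true from the other parents. In the first generation the same limit gave 0 of 53 in every tail and ear with the labelled parents. With the parents of mating 2 it gave 3 to 11 in the tails and 5 to 13 in the ears. Above the limit from X, H03384 and H03387 had 2 loci each, C6765 had 3, C6733 had 2 and the grandparents none. In both sons these included chr7:19282701-19283301, at 0.908 in H03384 and 0.885 in H03387, where C6765 had 0.0103. These parents could not have given 2 copies there. At chr14:19015123-19019258 C6765 (0.979) and C6733 (0.968) were above the limit, and H03384 (0.724) and H03387 (0.792) were below it.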

How the data were processed

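Capture libraries of genomic DNA were analysed from the lists of regions and counts that the authors deposited, 1 per library. According to the methods of the study, read pairs were mapped to mm9 with Bowtie, uniquely mapped reads were freed of duplicates with SAMtools, reads whose mate lay in an ETn repeat were kept, and regions up to 1000 bases apart were merged and their reads counted with BEDTools. No version of these tools was found in the labels or methods. The deposited counts are whole numbers that were not normalised, and removal of duplicates can limit the counts of strong regions. RPM was the count over the sum of the library times 1000000.

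Regions at 10 RPM or more were joined within 1000 bases over all libraries into 5018 loci, and calls followed the definitions in the report, using the first library of each animal. Parents came from the ancestry labels, with BA2728 read as BA27228 and BA2727 as BA27227. The generations were compared with exact two-sided permutation tests of the rank sum, adjusted over 3 tests by the Benjamini-Hochberg method. Animals were the unit, and a p-value is the share of relabelings of these animals with a rank sum at least as extreme. It treats the animals as exchangeable, although siblings share parents and the parents of both sons are 2 of the 5 first generation tails. Dose was scaled as stated. Loci were annotated with GENCODE vM1 (NCBIM37, the same build as mm9), and loci were matched to the probes of the study with blastn 2.17.0 (expect value 1e-05). Sequences came from the mm9 genome and the probe file. Named loci were the 5 strongest single-animal insertions of each son, loci new to both sons, insertions of the parents with a read in a son, loci of 100 RPM or more in an offspring and under 10 RPM in both parents, and the 3 segregating loci at each end of the contrast between generations; the Sgcz locus, at the lower threshold, was chosen after its values were seen. The members, thresholds and lists were chosen with earlier results of these data known. Calls were tested on simulated insertions. Alternatives are given in the closing section. Computation used Python 3.11.15 with pandas 2.3.3, numpy 2.4.6 and scipy 1.17.1.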

Additional observations from a re-analysis of the deposited data

Results flagged for a closer look

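Within the 5 first generation tails, 3 values stood further from the rest than Dixon's 95% criterion allows, which chance gives in about 1 of 20 groups for each measure screened. More measures than these 3 were screened. In C6733, the father and the only male of the 5, 76 segregating loci were called, where the other tails had 91 to 95. At 50 RPM or more C6733 had 58 against 66 to 79 and was not flagged. C7417 had 14341 regions where the others had 10999 to 11814. C6765, the mother, had 843579 reads where the others had 800823 to 812911. Their causes were not tested.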

How the results depend on the processing

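No paired analysis was possible because the ancestry labels give both sons the same parents, so that no son is matched to a first generation animal of his own, and the labels number no replicates over the groups. No test of 2 against 5 or fewer animals could pass the threshold of 0.05, so their p-values say nothing of stability. With the 3 ears added to the first generation an exact permutation p of 0.0444 was possible, and 0.156, 0.0667 and 0.444 were found for insertions, segregating loci and dose share. For single-animal insertions, 22 of 23 alternatives kept the direction, from 20 to 100 percentage points. With a call at 10 reads or more in place of 10 RPM the difference turned to -10 percentage points, with 23 to 25 in the sons and 0 to 72 in the first generation, since 10 reads are 15.7 to 16.3 RPM in the sons and 11.9 to 12.5 RPM in the first generation tails. Thinning to equal depth left 60 percentage points. Without each animal in turn the differences were 50 to 100 percentage points for insertions, -100 to -80 for segregating loci (-100 without C6733) and 0 to 100 for the intermediate dose share, which was 0 without H03387 and 100 without H03384. The 12 alternatives for segregating loci gave -100 to -40 and the 13 for the dose share 0 to 100, with adjusted p of exact permutation tests from 0.20 to 1. Insertions of the parents with a read in a son went from 0 to 1 at a threshold of 5 RPM and stayed at 0 with the sons left out of the rule on other animals, an alternative chosen after the data were seen, as were the limit from X, the transmission by calls, the female tails alone and all libraries of a parent. The count of strong loci without a carrier parent fell from 1 to 0 when no read was allowed in any library of a parent, through the 2 reads in the blood of C6733. Transmission by dose or calls ranged from 58.2% to 64.6%. Depth limits the weak calls, since 10 RPM is 6.15 to 6.35 reads in the sons.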
